A study of Mus musculus with 9 samples.

Results

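The enzymes that place the repressive histone marks H3K27me3 and H3K9me were compared between sorted BV+ and BV- cells of differentiating mouse PSCs, with and without induced NRF1. The set held 10 genes, chosen by name as rows of the deposited gene tables with a matching symbol, of the 56691 genes listed, and all 10 passed the filter on low counts that left 16903 genes for testing. The genes were Ezh1, Ezh2, Eed, Suz12 and Jarid2 of Polycomb repressive complex 2 (PRC2), and the H3K9 methyltransferases Ehmt1, Ehmt2, Setdb1, Suv39h1 and Suv39h2. RNA-seq covered 9 libraries of BVSC PSCs, a line whose forming germ cells are marked by 2 reporters, Blimp1-mVenus (BV) and Stella-CFP. The PSCs were grown into embryoid bodies (EBs) and carried either the p20 vector with a DOX-inducible Nrf1 cDNA (NRF1 OE) or the empty p20 vector (Ctrl), and both kinds of culture received 1.5 μg/mL DOX between day 2 and day 5. The 4 groups were BV+ NRF1 OE (n = 2), BV+ Ctrl (n = 2), BV- NRF1 OE (n = 3) and BV- Ctrl (n = 2). All groups therefore shared the reporter line, the vector backbone and DOX. BV+ cells are named PGC-like cells (PGCLCs) and BV- cells somatic cells by the study. The libraries held between 13702162 and 19625460 counts. The study calls its libraries biological duplicates or replicates without saying which came from separate differentiations, so p-values measure the spread between these libraries, which may in part be technical.

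PRC2 adds methyl groups to H3K27 and keeps developmental genes silent in pluripotent and germ cells. Its catalytic subunit is Ezh2 or Ezh1, Eed reads the mark and stimulates the enzyme, Suz12 holds the complex together, and Jarid2 helps to recruit it. H3K9 methylation marks silent chromatin: Ehmt2 (G9a) and Ehmt1 (GLP) act as a heterodimer in euchromatin, Setdb1 silences retrotransposons through Trim28, and Suv39h1 and Suv39h2 act at pericentromeric heterochromatin. Primordial germ cells are known for losing H3K9me2 and gaining H3K27me3 as they reprogram.

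The promoter sequences are shown first, because NRF1 is a DNA-binding factor and induced NRF1 is the treatment compared. NRF1 is known to bind a GC-rich palindrome whose 8 central bases are CGCATGCG. In RefSeq promoters on GRCm38.p6, taken from 250 bases before to 50 bases after each start, these 8 bases were present in 1.86% of 32817 promoters and in 0 of the 13 promoters of the 10 genes. The looser form CGCANGCG, which contains the exact form and was searched on both strands, was present in 8.19% of all promoters and in 1 promoter each of Ezh1, Ezh2, Jarid2, Ehmt1, Ehmt2, Suv39h1 and Suv39h2. It was not found in these windows for Eed, Suz12 or Setdb1. The 13 promoters were 53.0% to 82.7% G or C and held 15 to 41 CG dinucleotides, beside medians of 52.7% and 7 over all promoters. Whether the looser form was more frequent than in promoters of like composition was not tested. The match farthest upstream is given for each gene on the gene's own strand, with the match in capitals; that of Ehmt2 lies just after its start. A match describes letters in a window and was not tied to binding, and ChIP-seq was not analysed here.
Ezh1, chr11:101226469-101226518, minus strand: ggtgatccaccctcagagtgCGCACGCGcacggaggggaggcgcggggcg
Ezh2, chr6:47595165-47595214, minus strand: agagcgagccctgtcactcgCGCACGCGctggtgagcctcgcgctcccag
Jarid2, chr13:44730603-44730652, plus strand: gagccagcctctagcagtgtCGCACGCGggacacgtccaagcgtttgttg
Ehmt1, chr2:24919727-24919776, minus strand: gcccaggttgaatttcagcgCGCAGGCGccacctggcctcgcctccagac
Ehmt2, chr17:34898483-34898502, plus strand: ccccgCGCAAGCGgcgatgg
Suv39h1, chrX:8074761-8074810, minus strand: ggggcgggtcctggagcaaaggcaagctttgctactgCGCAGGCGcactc
Suv39h2, chr2:3475082-3475131, minus strand: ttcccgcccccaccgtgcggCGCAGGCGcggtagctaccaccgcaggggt

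For comparison, the 100 bases before the start of the 3 genes that passed the test in BV- cells are shown, with CG dinucleotides in capitals. The Suz12 stretch held 15 CG dinucleotides and was 79.0% G or C, that of Eed held 4 and was 58.0% G or C, and that of Ehmt2, at the first of 2 starts, held 10 and was 68.0% G or C.
Suz12, chr11:79993006-79993105, plus strand: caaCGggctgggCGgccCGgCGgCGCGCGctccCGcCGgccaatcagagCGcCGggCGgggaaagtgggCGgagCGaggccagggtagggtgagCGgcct
Eed, chr7:89980977-89981076, minus strand: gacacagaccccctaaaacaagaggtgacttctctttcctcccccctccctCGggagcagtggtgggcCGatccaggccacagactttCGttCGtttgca
Ehmt2, chr17:34898374-34898473, plus strand: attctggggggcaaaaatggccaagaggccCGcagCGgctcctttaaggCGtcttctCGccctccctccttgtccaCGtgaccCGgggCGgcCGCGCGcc

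Several measurements of the libraries bear on every result below. Nrf1, the induced gene, was at 91.1 and 90.4 CPM (counts relative to library size, scaled by TMM factors) in the BV+ Ctrl libraries and at 95.7 and 99.4 in the libraries labelled BV+ NRF1 OE. It was at 99.1 and 105 in BV- Ctrl and at 119, 122 and 126 in the libraries labelled BV- NRF1 OE. Every library labelled NRF1 OE was above every Ctrl library of its population, but the log2 fold changes of 0.10 (SE 0.10, adjusted p = 0.489) and 0.26 (SE 0.10, adjusted p = 0.0718) did not pass edgeR's quasi-likelihood F test, so NRF1 OE stands below for the label of a library. BV+ and BV- are likewise labels of a sort: Prdm1, the gene of the Blimp1 reporter, differed between them by 0.05 on the log2 scale at Ctrl and by 0.00 at NRF1 OE. The summed level of 8 germ cell markers was 581.7 to 581.8 CPM in BV+ Ctrl and 614 to 626 in BV- Ctrl, and 587 to 608 in BV+ NRF1 OE against 716 to 784 in BV- NRF1 OE. Among these, Dppa3, Nanos3 and Tfap2c were lower in BV+ than in BV- cells at NRF1 OE (adjusted p = 0.00536, 0.0035 and 0.0461), so the data did not show germ cell markers higher in the cells sorted as PGCLCs. The summed level of 6 mesenchyme markers (Col1a1, Col1a2, Col3a1, Pdgfrb, Thy1 and Acta2) was 203.5 to 210.4 CPM in BV+ Ctrl, 722.5 to 1214 in BV+ NRF1 OE, 49.0 to 62.5 in BV- Ctrl and 80.0 to 114 in BV- NRF1 OE. The 6 naive pluripotency markers (Zfp42, Klf4, Tfcp2l1, Esrrb, Tbx3 and Nanog) summed to 1282 to 1318 CPM in BV+ Ctrl and 1313 to 1325 in BV- Ctrl. Their sums were 1009 to 1175 in BV+ NRF1 OE and 1254 to 1339 in BV- NRF1 OE. The 5 blood and endothelium markers summed to 108 to 172 CPM over all libraries, mostly from Pecam1, with Ptprc at or near 0. In such bulk samples fewer cells of a type and less RNA per cell cannot be told apart, and the part of cell mixture in the results was not tested.

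The libraries also differed in how counts followed the GC content of transcripts. With each gene's log2 CPM taken as a deviation from its own 9-library mean, Spearman's rho with GC content over 11335 genes ran from -0.632 to -0.553 among Ctrl libraries. The BV+ NRF1 OE libraries had 0.349 and -0.022, and those of BV- NRF1 OE had 0.076, 0.713 and 0.628. NRF1 OE and Ctrl libraries thus differed in GC trend in both populations. The 10 genes span much of the range, from Suz12 at 41.6% GC to Ehmt2 at 60.8%, so the comparisons of these 10 genes are also given from a fit whose offsets remove a smooth trend over GC content and transcript length within each library. The part of GC content in the differences was not tested beyond that fit.

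Levels per length were compared in the deposited FPKM. In the Ctrl groups Suz12 was highest, at 62.8 ± 4.0 FPKM (SD, n = 2) in BV+ cells and 60.4 ± 7.6 (n = 2) in BV- cells. Jarid2 followed at 52.0 ± 1.6 and 52.8 ± 2.8, and Ezh2 at 37.3 ± 0.35 and 37.1 ± 3.4. The libraries of these neighbours did not overlap in either Ctrl group, and those of Ezh2 and Eed (30.4 ± 0.18 and 32.3 ± 2.5) did not either. Eed, Setdb1 (29.4 ± 1.7 and 27.7 ± 0.63) and Ehmt2 (28.4 ± 1.0 and 30.8 ± 1.2) came next, with overlapping libraries among neighbours except for Ehmt2 and Setdb1 in BV- cells. Ehmt1 was at 15.8 ± 0.28 and 15.5 ± 0.057, Suv39h2 at 12.1 ± 0.25 and 11.6 ± 0.61, Suv39h1 at 9.54 ± 1.1 and 8.34 ± 0.59, and Ezh1 was lowest at 6.80 ± 0.21 and 6.92 ± 0.53. Over the 9 libraries, mean FPKM placed Suz12 at percentile 93.0 and Ezh1 at percentile 61.4 of the genes tested, so even the lowest member was above the median gene.

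The order at the top was less clear with NRF1 OE. In BV+ cells Jarid2 (38.1 ± 9.0 FPKM, n = 2), Ehmt2 (37.7 ± 4.7) and Suz12 (35.2 ± 7.5) had overlapping libraries. In BV- cells Ehmt2 (41.2 ± 6.1, n = 3), Jarid2 (38.8 ± 7.4), Suz12 (33.4 ± 11.8), Ezh2 (26.7 ± 6.1), Setdb1 (23.4 ± 1.9) and Eed (21.7 ± 3.8) had libraries that overlapped between neighbours in this order, while Eed and the next gene, Ehmt1, did not overlap. Suv39h1, below Suv39h2 in both Ctrl groups, was above it with NRF1 OE, at 11.1 ± 1.1 against 8.47 ± 1.6 FPKM in BV+ cells and 10.7 ± 1.3 against 7.65 ± 1.9 in BV- cells, with overlapping libraries in BV- cells. Ezh1 had the lowest mean in both populations, at 5.81 ± 0.71 and 7.28 ± 0.14, but in BV- cells its libraries overlapped those of Suv39h2, which was lower in 2 of 3 (5.97 against 7.13 and 7.23 against 7.30 FPKM).

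**Figure D1:**
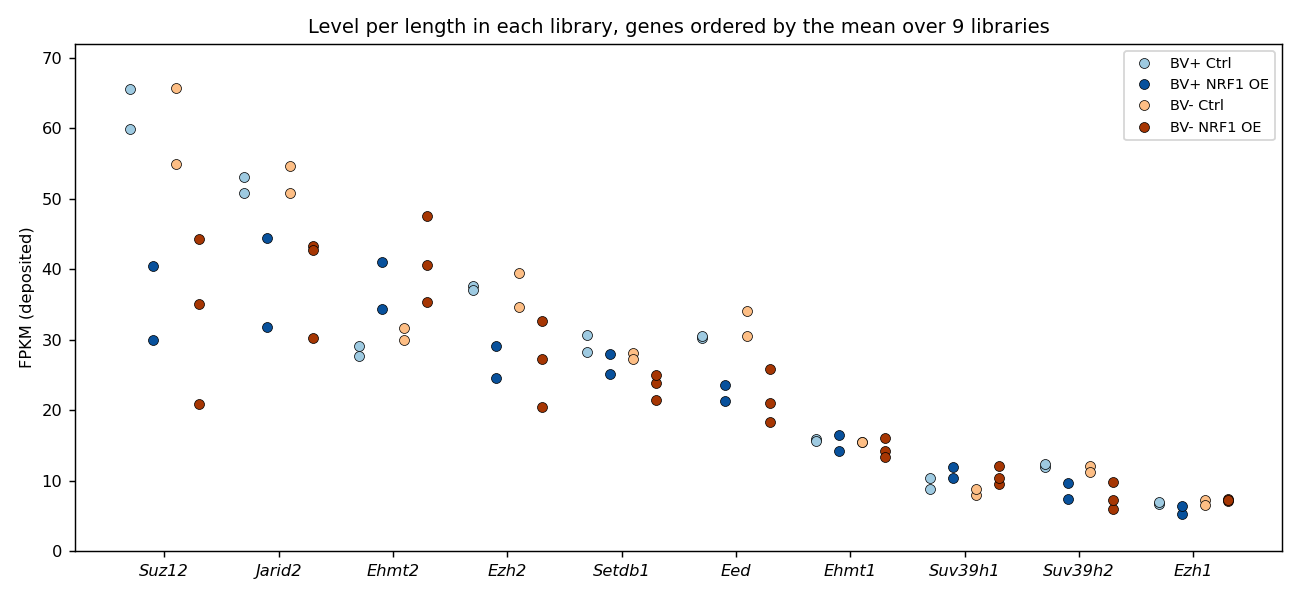
FPKM (y axis, linear) of the 10 genes in each of 9 libraries (points), coloured by group and ordered by mean FPKM over all libraries. Suz12 tops the Ctrl libraries at 60.4 to 62.8 on average and drops to the level of Jarid2 and Ehmt2 with NRF1 OE. Ezh1 has the lowest mean in each group, and Suv39h2 lies below it in 2 of the BV- NRF1 OE libraries.

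To ask how the NRF1 OE label went with these genes in cells sorted as PGCLCs, BV+ NRF1 OE was compared with BV+ Ctrl. Of the 10 genes, 0 passed edgeR's test at an adjusted p under 0.05, against 8.02% of all genes tested, and DESeq2 called 2, Suz12 and Ehmt2. The largest estimate was for the PRC2 scaffold Suz12, at 0.576 times the Ctrl level, followed by Suv39h2 at 0.717 times, while Ehmt2 was at 1.36 times. An unadjusted p under 0.05 was found for 6 genes, and for 32.5% of all genes. The NRF1 OE libraries were all above the Ctrl libraries for 2 of the genes and all below for 6, against 38.1% and 32.0% of all genes. The median log2 fold change of the 10 genes was -0.29, beside 0.036 for all genes tested, and -0.20 beside 0.0073 with the GC and length offsets, where 0 of the 10 and 12.0% of all genes were called.

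In BV- cells the same comparison gave 3 called genes of 10, against 17.2% of all genes, with 1 higher and 2 lower in the libraries labelled NRF1 OE, against 10.2% and 6.98%. Suz12 fell to 0.569 times and Eed to 0.692 times the Ctrl level, and Ehmt2 rose to 1.37 times (adjusted p = 0.0441, 0.0354 and 0.0415, edgeR). The calls were close to the threshold: with each library left out in turn, between 0 and 6 genes were called, and with the GC and length offsets Eed alone was (adjusted p = 0.0366), against 5.46% of all genes. An unadjusted p under 0.05 was found for 7 genes, against 39.1% of all genes. The NRF1 OE libraries were all above Ctrl for 2 genes and all below for 6, against 29.4% and 27.6% of all genes. The median log2 fold change was -0.30, beside 0.0092 for all genes, and -0.10 beside -0.040 with the offsets.

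**Figure D2:**
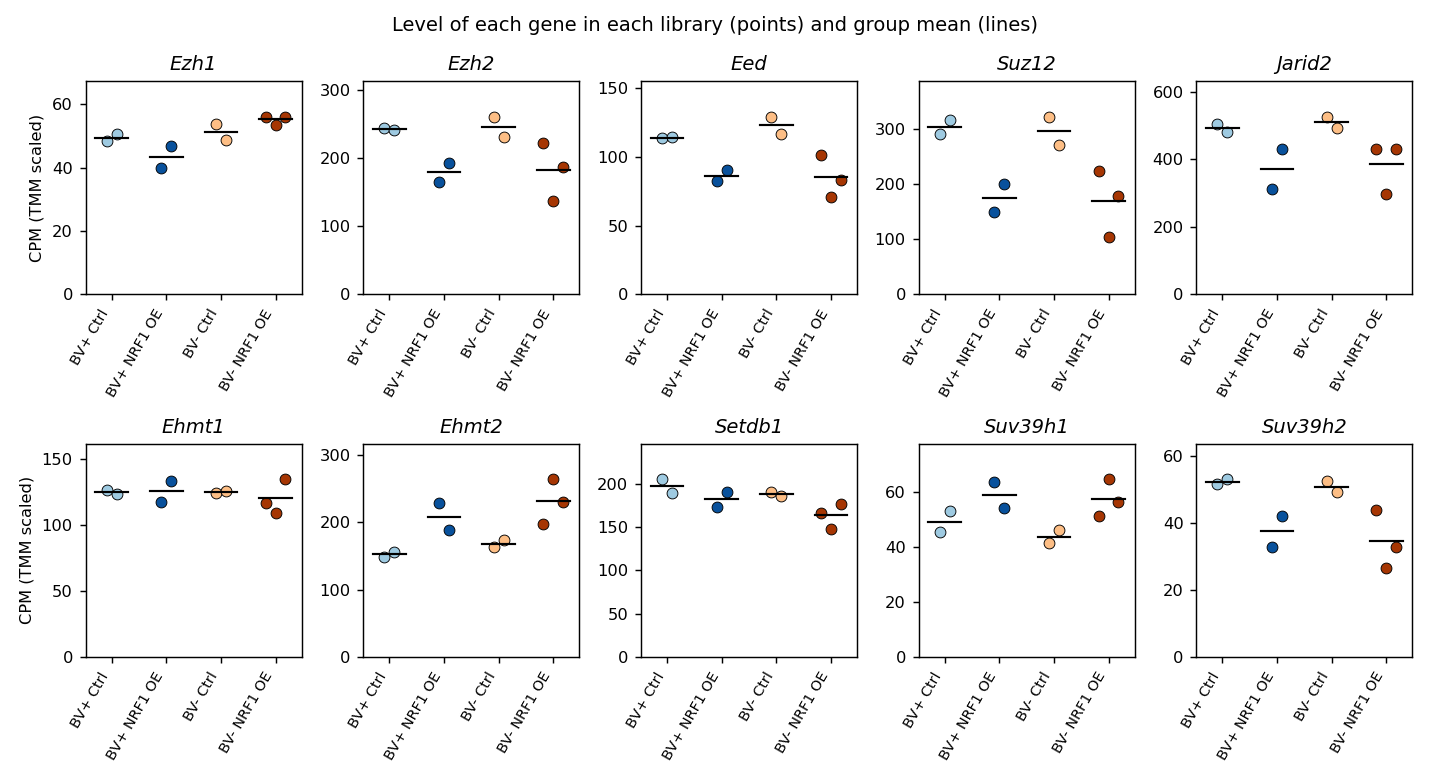
CPM scaled by TMM factors (y axes, linear, from 0) of each gene in each library (points), with group means (lines), for 9 libraries in 4 groups. Suz12, Eed, Ezh2, Jarid2 and Suv39h2 are lower and Ehmt2 and Suv39h1 higher in the NRF1 OE libraries than in the Ctrl libraries of both populations, with no overlap within a population.

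Suz12 had the largest estimate of the 10 genes in both populations. It was at 289.9 and 317 CPM in BV+ Ctrl and at 149.6 and 199.5 in BV+ NRF1 OE. It was at 322 and 271 in BV- Ctrl and at 223, 104 and 179 in BV- NRF1 OE. All NRF1 OE libraries lay below all Ctrl libraries, and BV- NRF1 OE replicate 2 was lowest. The log2 fold change was -0.80 (95% interval -1.39 to -0.21, adjusted p = 0.0810) in BV+ cells and -0.81 (-1.34 to -0.28, adjusted p = 0.0441) in BV- cells. With the offsets it was -0.52 (adjusted p = 0.0592) and -0.44 (adjusted p = 0.0933), so the call in BV- cells was lost and the direction was kept. Genes with a GC content from 39% to 42%, like that of Suz12, had a median of -0.31 and a lower quartile of -0.48 in BV+ cells and -0.49 and -0.69 in BV- cells, and Suz12 lay below both quartiles.

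Eed, the subunit that binds H3K27me3, was at 113 and 114 CPM in BV+ Ctrl and at 82.3 and 90.1 in BV+ NRF1 OE. In BV- cells it was at 129 and 117 in Ctrl and at 101, 70.8 and 83.0 in NRF1 OE. All NRF1 OE libraries were again below all Ctrl libraries. Its log2 fold change was -0.40 (adjusted p = 0.106) in BV+ cells and -0.53 (-0.83 to -0.23, adjusted p = 0.0354) in BV- cells, and it changed little with the offsets, to -0.32 and -0.48 (adjusted p = 0.111 and 0.0366). The adjusted p in BV- cells lay between 0.00889 and 0.311 with single libraries left out, and Eed was called in 4 of these 9 fits.

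Ezh2, the main methyltransferase subunit, was at 245 and 242 CPM in BV+ Ctrl and at 166 and 194 in BV+ NRF1 OE. In BV- cells it was at 262 and 231 in Ctrl and at 222, 137 and 188 in NRF1 OE. The groups did not overlap in either population, but the log2 fold changes of -0.44 and -0.43 did not pass (adjusted p = 0.129 and 0.0815), and with the offsets they were -0.18 and -0.12. Its paralog Ezh1 was also lower without overlap in BV+ cells, while its libraries overlapped in BV- cells. Ezh1 was at 48.4 and 50.5 CPM in BV+ Ctrl, 40.0 and 46.8 in BV+ NRF1 OE, 53.8 and 48.7 in BV- Ctrl and 56.1, 53.6 and 56.2 in BV- NRF1 OE. Its log2 fold changes of -0.19 in BV+ cells and 0.11 in BV- cells had opposite signs and neither passed (adjusted p = 0.298 and 0.497), with -0.21 and 0.06 from the offsets, and the difference between them, -0.30 (95% interval -0.67 to 0.07, adjusted p = 0.972), did not pass either.

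Jarid2, a PRC2 cofactor without demethylase activity, was at 504 and 482 CPM in BV+ Ctrl and at 312 and 431 in BV+ NRF1 OE, and at 527 and 492 in BV- Ctrl against 429, 296 and 429 in BV- NRF1 OE. The NRF1 OE libraries were below the Ctrl libraries in both populations, and 1 library in each NRF1 OE group was well below the others. The log2 fold changes were -0.41 and -0.40 (adjusted p = 0.150 and 0.0998), and -0.28 and -0.25 with the offsets. Jarid2 lay below the lower quartile of genes with 48% to 51% GC in both populations, which was at -0.20 in each.

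Among the H3K9 methyltransferases, Ehmt2 and Suv39h1 were higher in the NRF1 OE libraries. Ehmt2 was at 149 and 156 CPM in BV+ Ctrl and at 228 and 188 in BV+ NRF1 OE, and at 163 and 173 in BV- Ctrl against 198, 264 and 231 in BV- NRF1 OE. Groups did not overlap, and the highest value was in BV- NRF1 OE replicate 2, the library in which Suz12 was lowest. The log2 fold change was 0.45 (95% interval 0.13 to 0.76, adjusted p = 0.0711) in BV+ cells and 0.46 (0.17 to 0.75, adjusted p = 0.0415) in BV- cells. With the offsets it was 0.11 (adjusted p = 0.321) and 0.09 (adjusted p = 0.458), so the call in BV- cells was lost there. Genes of 60% to 63% GC, to which Ehmt2 belongs, had medians of 0.41 and 0.45, close to its own values.

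Its partner Ehmt1 was at 127 and 123 CPM in BV+ Ctrl, 117 and 134 in BV+ NRF1 OE, 124 and 126 in BV- Ctrl and 117, 109 and 135 in BV- NRF1 OE. The groups overlapped in both populations, and the log2 fold changes of 0.00 (95% interval -0.27 to 0.28) and -0.06 (-0.31 to 0.20) did not pass, nor did those of -0.0045 and -0.08 with the offsets. Setdb1 was at 205 and 189 CPM in BV+ Ctrl, 174 and 191 in BV+ NRF1 OE, 191 and 186 in BV- Ctrl and 167, 148 and 177 in BV- NRF1 OE. It overlapped in BV+ cells and not in BV- cells, with log2 fold changes of -0.11 and -0.20 (adjusted p = 0.504 and 0.177). With the offsets these were 0.0068 and -0.08, so the sign in BV+ cells turned.

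The pericentromeric enzymes Suv39h1 and Suv39h2 had estimates of opposite sign. Suv39h1 was at 45.3 and 53.0 CPM in BV+ Ctrl and 63.4 and 54.0 in BV+ NRF1 OE, and at 41.3 and 46.0 in BV- Ctrl and 51.3, 64.5 and 56.4 in BV- NRF1 OE. Its log2 fold changes of 0.26 and 0.39 (adjusted p = 0.241 and 0.0641) were almost the same with the offsets, at 0.27 and 0.36 (adjusted p = 0.173 and 0.0830). Of the 10 genes, Suv39h1 alone was above the upper quartile of genes of its GC content, which was 0.23 in BV+ and 0.22 in BV- cells. Suv39h2 was at 51.5 and 53.0 CPM in BV+ Ctrl and 32.8 and 42.1 in BV+ NRF1 OE, and at 52.5 and 49.1 in BV- Ctrl and 43.8, 26.6 and 32.9 in BV- NRF1 OE. Its log2 fold changes of -0.48 and -0.56 (adjusted p = 0.129 and 0.0539) were -0.24 and -0.25 with the offsets.

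**Figure D3:**
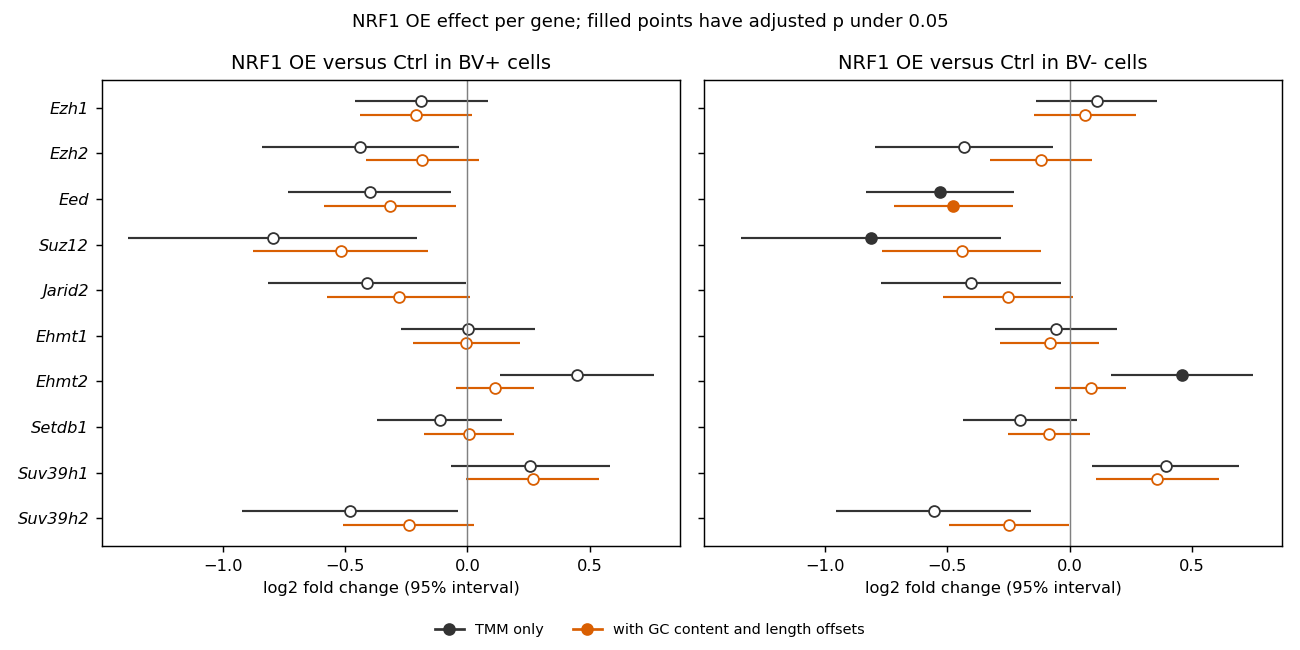
Log2 fold change of NRF1 OE over Ctrl (x axis) with its 95% interval for each gene (y axis) in BV+ (left) and BV- cells (right), from the fit with TMM alone and from the fit with GC content and length offsets. Filled points passed at an adjusted p under 0.05: Suz12, Eed and Ehmt2 in BV- cells with TMM alone, and Eed there with the offsets.

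The estimates followed GC content among the 10 genes. Spearman's rho between GC content and log2 fold change was 0.867 in BV+ cells and 0.939 in BV- cells over the 10 genes, which share libraries and normalization, and 0.624 and 0.758 with the offsets. Set beside all genes of a like GC content, in bins of 3 points, 6 genes lay below the lower quartile, 3 within the quartiles and 1 above in BV+ cells. In BV- cells 5 lay below, 4 within and 1 above. Suz12, Eed and Jarid2 were below in both populations, and Ehmt2 was within in both. Ezh2 in BV+ cells and Setdb1 in BV- cells were only just below.

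**Figure D4:**
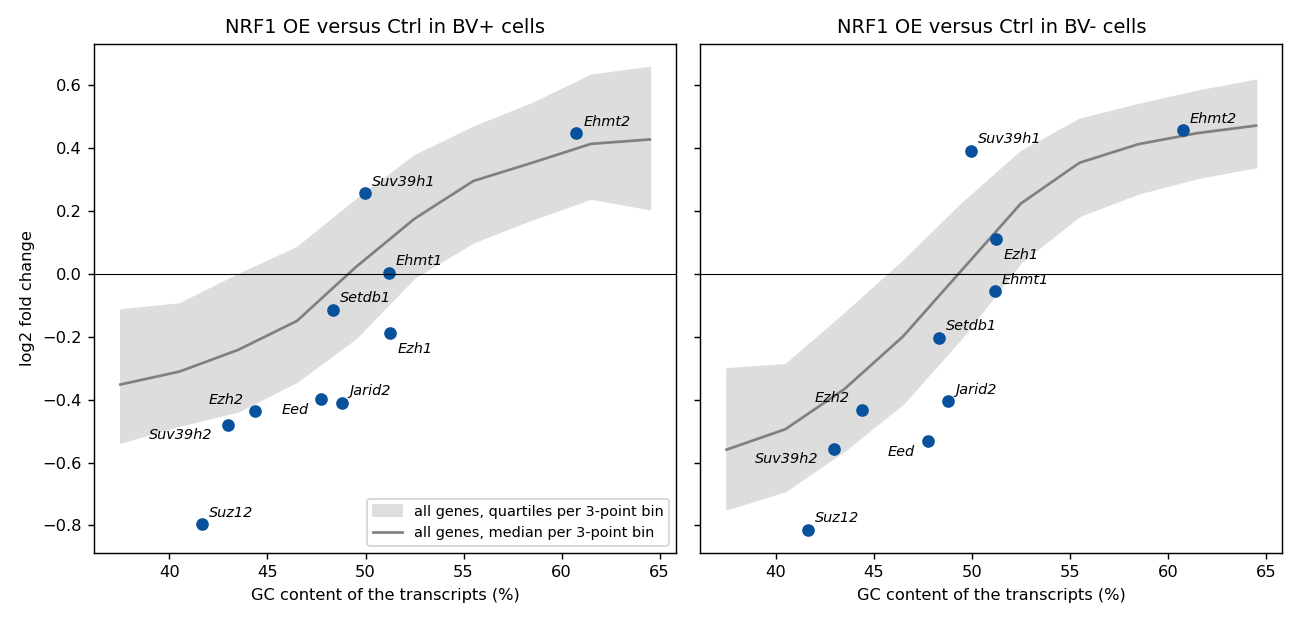
Log2 fold change of NRF1 OE over Ctrl (y axis) against GC content of the transcripts in percent (x axis) for the 10 genes (points), with the median (line) and quartiles (band) of all genes in bins of 3 points, in BV+ (left) and BV- cells (right). The line rises with GC content in both panels, Ehmt2 lies on it or near it, and Suz12, Eed and Jarid2 lie under the band.

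Between related enzymes, the balance within a library avoids the scaling between libraries but not the GC content of each gene. The FPKM ratio of Ezh2 to Ezh1 was 5.29 to 5.65 in the 4 Ctrl libraries, 4.62 and 4.63 in BV+ NRF1 OE, and 4.41, 2.86 and 3.73 in BV- NRF1 OE. The ratio of Ehmt2 to Ehmt1 was 1.74 to 2.04 in Ctrl libraries, 2.88 and 2.08 in BV+ NRF1 OE and 2.50, 3.58 and 2.53 in BV- NRF1 OE. The ratio of Suv39h1 to Suv39h2 was 0.659 to 0.837 in Ctrl libraries, 1.62 and 1.07 in BV+ NRF1 OE and 0.979, 2.03 and 1.43 in BV- NRF1 OE. Ezh2 and Eed, which bind each other directly, had a ratio of 1.11 to 1.30 over all 9 libraries. Suz12 to Eed ran from 1.80 to 2.15 in Ctrl libraries and from 1.14 to 1.72 with NRF1 OE. These ratios were not tested and are given as a description.

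**Figure D5:**
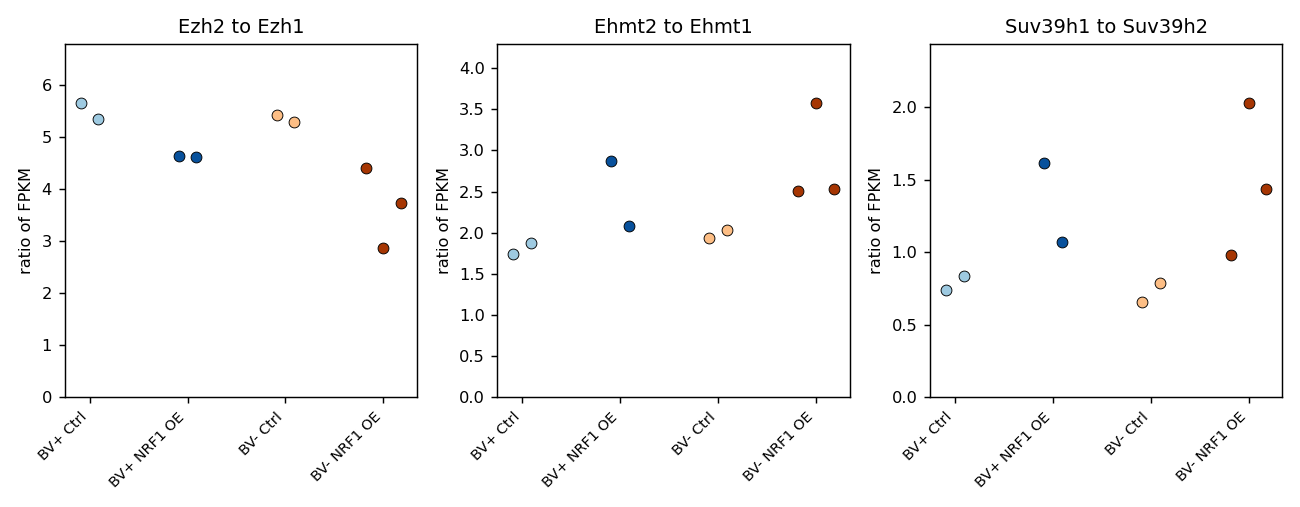
Ratio of FPKM (y axes, linear, from 0) between paralogs in each of 9 libraries (points), by group. Every NRF1 OE library lies below the Ctrl libraries for Ezh2 to Ezh1 and above them for Ehmt2 to Ehmt1 and Suv39h1 to Suv39h2.

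BV+ and BV- cells were compared within each condition to ask whether these genes differ between the 2 sorted populations. The summed germ cell markers given above were not higher in BV+ than in BV- cells, so the comparison is between labels of a sort. At Ctrl, 0 of 10 genes were called by edgeR, 0 had an unadjusted p under 0.05, and 0 were called by DESeq2, against 1.12%, 7.77% and 1.81% of all genes. The log2 differences of BV+ over BV- lay between -0.14 for Ehmt2 and 0.17 for Suv39h1, and the widest interval, that of Suz12, ran from -0.55 to 0.62. With the offsets 0 were called, against 1.9% of all genes, 1 had an unadjusted p under 0.05 (Ehmt2, -0.16), and the differences lay between -0.16 and 0.16. At NRF1 OE, 0 of 10 were called by edgeR, 1 had an unadjusted p under 0.05 and 0 were called by DESeq2, against 13.8%, 28.2% and 13.7% of all genes. That 1 gene was Ezh1, with a log2 difference of -0.35 (95% interval -0.60 to -0.10, adjusted p = 0.0665). With the offsets Ezh1 was lower in BV+ cells by -0.36 (adjusted p = 0.0222), where 19.2% of all genes were called. The remaining differences at NRF1 OE lay between -0.15 for Ehmt2 and 0.15 for Setdb1.

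The NRF1 OE effect itself was compared between BV+ and BV- cells with an interaction contrast. The share of all genes called was 0.0%, with 5.51% at an unadjusted p under 0.05 and 0.172% called by DESeq2, and 0 of the 10 genes were called by either tool or had an unadjusted p under 0.05. The differences of effect lay between -0.30 for Ezh1 and 0.13 for Eed, and between -0.27 and 0.16 for the same genes with the offsets, where 0 of the 10 and 0.0% of all genes were called. For Suz12 it was 0.02 with a 95% interval from -0.78 to 0.81, so an effect in BV+ cells that was larger or smaller than that in BV- cells by less than this could not be told from none with 2 or 3 libraries a group.

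Other subunits of the complexes were counted by lists of known members. For every list, the share of all genes called with NRF1 OE was 8.02% in BV+ and 17.2% in BV- cells. With the offsets these shares were 12.0% and 5.46%. An unadjusted p under 0.05 was found for 32.5% and 39.1% of all genes, and DESeq2 called 2126 and 4166 of 16903. Between BV+ and BV- cells at NRF1 OE, 13.8% of all genes were called. Of 10 accessory subunits of PRC2, 1 was called in BV+ cells and 3 in BV- cells (the share of all genes being 8.02% and 17.2%, as above). Phf19, which binds H3K36me3 and recruits PRC2, rose in both, by 0.53 (adjusted p = 0.0330) and 0.86 (adjusted p = 0.0317) on the log2 scale, and with the offsets it was called in BV- cells (0.61, adjusted p = 0.0281) but not in BV+ cells (0.36, adjusted p = 0.0596). Its family member Mtf2 and the cofactor Aebp2 fell in BV- cells, with log2 fold changes of -0.82 and -0.64 (adjusted p = 0.0372 and 0.0403), and neither was called with the offsets. The histone-binding subunits Rbbp4 and Rbbp7 had log2 fold changes of 0.22 and -0.08 in BV+ cells and 0.26 and -0.16 in BV- cells and did not pass, but with the offsets Rbbp4 was called in BV- cells (0.62, adjusted p = 0.0336). In BV+ cells the offsets left Phf19 uncalled and called 2 subunits lower, Epop (-0.46, adjusted p = 0.0169) and Phf1 (-0.76, adjusted p = 0.0322), which had not passed without them (-0.03 and -0.40). At NRF1 OE, Phf19 and Epop were lower in BV+ than in BV- cells, by -0.47 and -0.48 (adjusted p = 0.0174 and 0.0477).

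Of 24 subunits of PRC1, the complex that ubiquitinates histone H2A and reads H3K27me3 through its Cbx proteins, 2 rose and 0 fell in BV+ cells. They were Phc2, a polyhomeotic subunit (1.39, adjusted p = 0.0164), and Cbx2 (0.48, adjusted p = 0.0499). Cbx2 was not called with the offsets (0.18, adjusted p = 0.150). In BV- cells 4 rose and 4 fell, against 10.2% and 6.98% of all genes. Phc3 (-0.97), Rybp (-0.73), Bmi1 (-0.65) and L3mbtl2 (0.37) had the lowest adjusted p there, at 0.0354 to 0.0372. With the offsets 3 rose and 3 fell in BV+ cells and 0 were called in BV- cells, against 12.0% and 5.46% of all genes. The median log2 fold change of the list was -0.08 and 0.08. At NRF1 OE, 2 were higher in BV+ than in BV- cells, Phc2 by 1.44 and Yaf2 by 0.73 (adjusted p = 0.00143 and 0.00799), and 2 were lower, L3mbtl2 by -0.45 and Phc1 by -0.39 (adjusted p = 0.0124 and 0.0485).

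The enzymes that remove H3K27 methylation are Kdm6a (UTX) and Kdm6b (JMJD3). Kdm6a had log2 fold changes of -0.48 in BV+ cells (adjusted p = 0.125) and -0.63 in BV- cells, where it fell (adjusted p = 0.0408), and it was not called with the offsets (-0.19, adjusted p = 0.218). Kdm6b was at 0.35 and -0.02 and did not pass, and at NRF1 OE it was higher in BV+ than in BV- cells by 0.70 (adjusted p = 0.0241).

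On the H3K9 side, of 12 partners of the methyltransferases and subunits of the HUSH complex, 0 were called in BV+ cells by edgeR or DESeq2 and 5 had an unadjusted p under 0.05. In BV- cells Trim28, the corepressor that brings in Setdb1, rose (0.37, adjusted p = 0.0374) and the HUSH subunit Tasor fell (-0.99, adjusted p = 0.0406), and with the offsets 0 were called in either population. Atf7ip, which stabilises Setdb1, had log2 fold changes of -0.30 in both and did not pass. Between BV+ and BV- cells at NRF1 OE, Trim28 was lower in BV+ cells, by -0.42 (adjusted p = 0.0191), and the HUSH subunit Pphln1 (periphilin) was higher, by 0.64 (adjusted p = 0.00305). The HP1 proteins, which bind H3K9 methylation, had estimates below 0 throughout, at -0.46, -0.31 and -0.33 in BV+ cells for Cbx1, Cbx3 and Cbx5 and at -0.48, -0.34 and -0.59 in BV- cells. Of these, Cbx1 and Cbx5 fell in BV- cells (adjusted p = 0.0394 and 0.0435), and in BV+ cells edgeR called 0, with 1 at an unadjusted p under 0.05, and DESeq2 called 1. With the offsets 0 were called in either. Setdb2 and Prdm2, the other H3K9 methyltransferases listed, were not called in either population by edgeR or DESeq2, with 0 at an unadjusted p under 0.05, and their median was -0.33 and -0.25.

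Of 11 H3K9 demethylases, 10 were tested and Kdm4d, at or below 0.315 CPM in each library, was not. Kdm4b rose in BV+ cells (0.61, adjusted p = 0.0424), and Kdm7a (-1.12), Kdm4c (-0.77) and Jmjd1c (-0.85) fell in BV- cells (adjusted p = 0.0354, 0.0385 and 0.0411). With the offsets 0 of the 10 were called in either population. Of 16 methyltransferases of other histone residues, 0 were called in BV+ cells by edgeR (4 at an unadjusted p under 0.05, and 1 by DESeq2) and 1, Ash1l, an H3K36 methyltransferase, fell in BV- cells (-0.73, adjusted p = 0.0482), where 9 had an unadjusted p under 0.05 and DESeq2 called 6. With the offsets 2 were called higher and 1 lower in BV+ cells and 1 each way in BV- cells, and Ash1l was not among them (-0.31, adjusted p = 0.209). At NRF1 OE, Nsd2 and Setd7 were higher in BV+ than in BV- cells, by 0.42 and 0.39 (adjusted p = 0.0141 and 0.0295), and Kmt2b was lower, by -0.34 (adjusted p = 0.0482), and Nsd2 was not called with the offsets (0.07, adjusted p = 0.768). Of the 4 DNA methyltransferase genes tested, 0 were called in either by edgeR or DESeq2, with 0 and 1 at an unadjusted p under 0.05, and their medians were 0.02 and 0.11. Dnmt3l, a cofactor of the de novo enzymes, was lower in BV+ than in BV- cells at NRF1 OE, by -0.62 (adjusted p = 0.0127).

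Genes known as Polycomb targets in PSCs were read as a list, since PRC2 keeps such genes silent. Of 19 developmental regulators, 17 were tested, and Neurog1 and Cdx2 were too low. In BV+ cells 1 rose, Lhx2 (1.54, adjusted p = 0.0204), and in BV- cells 2 fell, Tbx3 (-0.84, adjusted p = 0.0317) and Gata6 (-1.08, adjusted p = 0.0419). The medians were 0.11 and 0.03. With the offsets 1 rose and 2 fell in BV+ cells and 3 fell in BV- cells. Between the populations at NRF1 OE, Tbx3 was at 19.0 and 21.3 CPM in BV+ and 7.83 to 10.1 in BV- cells, a log2 difference of 1.15 (adjusted p = 0.000294). Hand1, Msx1 and Isl1, next by adjusted p, were near the limit of detection in BV- cells, and passed the filter on low counts through the BV+ libraries, so their levels are given without a test. Hand1 was at 1.905 and 4.173 CPM in BV+ NRF1 OE and 0.120 to 0.237 in BV- NRF1 OE. Msx1 was at 1.80 and 3.25 against 0.221 to 0.301. Isl1 was at 2.56 and 3.61 against 0.0737 to 0.296, and at 1.26 and 2.69 in BV+ Ctrl against 0.107 and 0.378 in BV- Ctrl. At Ctrl, Tbx3 was at 23.6 and 24.8 CPM in BV+ and 15.3 and 17.2 in BV- cells, a log2 difference of 0.57 (adjusted p = 0.148, edgeR). For Hand1, Msx1 and Isl1 the lack of overlap is not read as a result, because they passed the filter through the BV+ libraries. Tbx3 is also a gene of naive pluripotency, and Hand1 and Isl1 are also mesoderm genes. The summed mesenchyme markers given above were also higher in BV+ than in BV- cells. Thy1 among them went the other way at NRF1 OE, at a mean of 2.949 CPM in BV+ against 4.315 in BV- cells. The part of the mesenchyme markers in the differences of these regulators was not tested.

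Over the 9 libraries Suz12 and Ezh2 went together, with a Pearson correlation of log2 CPM of 0.990, and Suz12 and Suv39h2 had 0.980. Ehmt2 ran opposite to Suv39h2 (-0.975), Ezh2 (-0.927) and Jarid2 (-0.881), and with Suv39h1 (0.836). Ezh1 correlated with no other member beyond 0.299. These points are libraries that differ in GC trend. With the offsets Suz12 had 0.880 with Ezh2 and 0.943 with Suv39h2, while Ehmt2 had -0.570 with Suv39h2, -0.101 with Ezh2, -0.238 with Jarid2 and 0.347 with Suv39h1, and Ezh1 had 0.658 with Ezh2. Among 9492 genes with a mean of at least 10 CPM, those most like Suz12 were Arid4a (0.998) and Zfp281 (0.997), those most like Ezh2 were Fancm (0.996) and Sbno1 (0.994), and those most like Eed were Polr3g and Rnmt (0.990 each). Abl2 and Tnpo3 were nearest to Jarid2 (0.996 and 0.995), Nkiras2 and Slc35a4 to Ehmt2 (0.995 and 0.994), and Cul1 and Dusp16 to Suv39h2 (0.998 and 0.996). For the other members the nearest genes had 0.946 (Lamc1 for Ehmt1) to 0.981 (Dpysl5 for Suv39h1 and Hnrnpd for Setdb1), with Agk at 0.960 for Ezh1. With the offsets the nearest gene changed for every member except Suv39h2, for which it was again Cul1 (0.986).

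Exons of an annotated gene on the opposite strand overlap those of Ezh2, Eed, Suz12, Setdb1, Suv39h1 and Suv39h2, and for Setdb1 and Suv39h2 these include the protein-coding genes Cers2 and Dclre1c. Exons of a gene on the same strand overlap those of Ehmt1. Whether the reads were counted by strand is not given in the sources used here, so the counts of these genes are uncertain to that extent.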

How the data were processed

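The sources were the gene tables of 9 libraries. The authors trimmed the reads, mapped them to GRCm39 (Ensembl release 107) with HISAT2 2.0.1, and counted them with HTSeq 0.6.1, as the labels and the paper's methods give it. The deposited files hold raw counts per gene, not normalized, and FPKM that the authors calculated from these counts. FPKM were used here only for levels between genes and to derive the length of each gene. Counts were tested in R 4.3.3 with edgeR 4.0.16 (quasi-likelihood F test, 1 fit of all 9 libraries with 4 group terms, TMM factors 0.969 to 1.026, filterByExpr), with Benjamini-Hochberg adjustment over 16903 genes and a threshold of 0.05, all two-sided. FPKM carry no test. GC content was that of each gene's longest transcript in GENCODE M21 on GRCm38, which matched 98.6% of the genes tested. Transcript length was derived from the deposited counts and FPKM. Promoters came from RefSeq on GRCm38.p6, so no coordinate of the deposited build is printed. Offsets were smooth fits of each library over GC content and length, from mgcv 1.9.3. The promoter motif was reduced to 8 bases after a 10-base form had been searched. Log2 CPM for likeness used a prior count of 2, and intervals are 95% intervals.

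Named were the 10 genes in every comparison, Nrf1, the markers, up to 4 called genes per list in each comparison by adjusted p, 9 partner genes whatever their p, and the 2 genes most like each member. The members and lists were chosen with earlier results of these data known. Alternatives were DESeq2 1.42.0, other scaling factors, no filter or a mean of at least 10 counts, only the groups compared, the replicate number as a block, the offsets, the study's threshold (p under 0.05 and absolute log2 fold change above 0.58) and each library left out; a block with crossed replicate numbers was chosen after seeing the data. The fits were tested on simulated counts with known changes. Each simulation held 200 genes with a true log2 effect of 1.5. For NRF1 OE in BV+ cells without a simulated GC trend, TMM alone recovered 165 and made 10 false calls. Under a simulated GC trend, TMM alone recovered 164 and made 274 false calls, while the fit with offsets recovered 166 and made 10. For the difference of effects under that trend, TMM alone recovered 128 with 5 false calls, and the fit with offsets 142 with 7. The simulated effect was larger than any NRF1 OE estimate of the 10 genes. The simulated trend was linear in GC content and held no trend over length. These counts therefore do not show how the fits perform for changes of the size estimated here. Figures were drawn with matplotlib 3.10.9.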

Additional observations from a re-analysis of the deposited data

How the results depend on the processing

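The direction of the NRF1 OE estimate in BV- cells was kept for all 10 genes under the 19 alternatives run. Suz12 there ranged from -1.07 to -0.44 and was called in 8 alternatives, Eed from -0.67 to -0.45 and was called in 11, and Ehmt2 from 0.09 to 0.56 and was called in 9. In BV+ cells Ehmt1 and Setdb1 changed sign. No scaling moved the median of all genes by more than 0.057 on the log2 scale. The lowest count of any of the 10 genes in a library was 361, for Suv39h2. The causes of the changes below were not tested.

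Of the 10 genes in BV+ cells, where 0 were called, DESeq2 called 2, no filter 6, only the groups compared 6 and the study's rule 1, and 0 to 6 were called with 1 library left out. In that order, DESeq2, no filter, only the groups compared and the study's rule called 2126, 3440, 4371 and 2870 of all genes. In BV- cells, where 3 were called, DESeq2 and no filter called 6 each, against 4166 and 4392 of all genes. DESeq2 tested 16903 genes and the fit without a filter tested every gene with a count, so these are not shares of the same number. Only the groups compared gave 0 of the 10, the GC content and length offsets 1 and the study's rule 1. Of all genes, these called 0, 909 and 2703. Leaving out single libraries gave 0 to 6, with 0 without BV- NRF1 OE replicate 3, either BV- Ctrl or either BV+ Ctrl library, and 6 without BV- NRF1 OE replicate 1. At NRF1 OE, BV+ against BV- gave 1 with the offsets (Ezh1). No member was called between BV+ and BV- cells, or for the difference of effects, with any 1 library left out.

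Of all genes, 1355 were called in BV+ cells, against 2126 by DESeq2, 3440 without a filter, 4371 with only the groups compared, 2870 by the study's rule, and 0 to 4957 with 1 library left out. In BV- cells 2910 became 4392 without a filter, 0 with only the groups compared, 909 with the offsets and 0 to 5847 with 1 library left out, with 35 without BV- NRF1 OE replicate 3. Between BV+ and BV- at Ctrl, 190 became 306 by DESeq2, 529 without a filter, 890 with only the groups compared, 317 with the offsets, 971 by the study's rule and 31 to 484 with 1 library left out. At NRF1 OE, 2325 became 1260 with only the groups compared and 786 to 3182 with 1 library left out. The difference of effects, at 0, gave 29 by DESeq2, 108 without a filter, 757 by the study's rule and 0 to 33 with 1 library left out.

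Deviations from group means had correlations of -0.295 to 0.243 between same-numbered libraries. In a group of 2 libraries the deviations mirror each other, so these values cannot show whether the numbers pair samples. BV- NRF1 OE replicate 3 had no partner of its number. With the replicate block 3 genes were called in BV+ cells, 0 in BV- cells (0 of the 10 genes), 121 at Ctrl and 1064 at NRF1 OE. The replicate block with the offsets called 2 genes in BV- cells, 0 of them among the 10, and 1 for the difference of effects. Within the Ctrl libraries alone, a block added after seeing the data gave 823 genes with the numbers as labelled and 2079 with crossed numbers, and 0 of the 10 in each.

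Estimates near 0 changed sign. For NRF1 OE in BV+ cells, Ehmt1 was -0.0344 by library size, -0.0301 with upper-quartile factors, -0.0204 without a filter, -0.0403 with only the groups compared, -0.0045 with the offsets, -0.0041 with block and offsets and -0.0924 to 0.0991 with 1 library left out. Setdb1 was 0.0068 with the offsets and 0.0078 with block and offsets. For BV+ over BV- at Ctrl, Ezh2 was 0.0099 by library size and 0.0036 without a filter, and Ehmt1 was -0.015 by DESeq2 and by its size factors, -0.019 at a mean of at least 10 counts and -0.0379 with the offsets, with or without the block. With 1 library left out, Ezh1 ran from -0.1483 to 0.0215, Ezh2 from -0.1282 to 0.0759, Suz12 from -0.1131 to 0.1599, Jarid2 from -0.1206 to 0.0005, Ehmt1 from -0.0188 to 0.0313 and Suv39h2 from -0.0329 to 0.0885.

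At NRF1 OE, BV+ over BV-, Ezh2 was 0.0055 by library size, 0.014 at a mean of at least 10 counts, 0.0124 with only the groups compared and 0.0263 with the block. Eed and Suv39h1 were -0.0119 and -0.006 with upper-quartile factors, Suz12 -0.0698 with the offsets and Jarid2 0.0429 with the block. With 1 library left out, Ezh2 ran from -0.1516 to 0.1433, Eed from -0.0572 to 0.1615, Suz12 from -0.1749 to 0.2998, Jarid2 from -0.3043 to 0.1615, Ehmt1 from -0.0382 to 0.165, Suv39h1 from -0.0852 to 0.1606 and Suv39h2 from -0.0733 to 0.3272. For the difference of effects, Ezh2 was 0.0107 by DESeq2, 0.0105 with its size factors, 0.0502 at a mean of at least 10 counts and 0.0368 with the block. Suz12 was -0.02 with upper-quartile factors, -0.006 without a filter, -0.0759 with the offsets and -0.0003 with block and offsets. Jarid2 was 0.0103, 0.0101 and 0.0503 by DESeq2, its size factors and a mean of at least 10 counts, 0.0897 with the block and 0.0461 with block and offsets. Ehmt2 was 0.0021 by DESeq2 and its size factors, 0.0487 at a mean of at least 10 counts, 0.0272 with the offsets and 0.0229 with block and offsets, and Suv39h2 was -0.0112 with block and offsets. With 1 library left out, Ezh2 ran from -0.1661 to 0.1583, Suz12 from -0.228 to 0.2676, Jarid2 from -0.257 to 0.2083, Ehmt1 from -0.0398 to 0.1514, Ehmt2 from -0.1555 to 0.1216 and Suv39h2 from -0.1142 to 0.286.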
